A study of Sus scrofa with 6 samples.

Results

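The genes described here are 10 genes of lipid droplets and fatty acid oxidation: *PLIN2*, *PLIN3*, *PNPLA2*, *DGAT1*, *CPT1A*, *CPT2*, *ACADM*, *ACADVL*, *HADHA* and *HADHB*. They were chosen by name for what they encode, as the rows of the gene table that carry these symbols, and they are 10 of the 24358 genes in the table. They were read in single pig embryos at day 5. The control group was 3 embryos that received no injection of any kind, so no embryo carried a negative-control siRNA. The *CARM1* KD (knockdown) group was 3 embryos grown from mature (MII) oocytes, each given about 10 pl of siRNA at 50 μM in the cytoplasm. The siRNA was designed against 3 sites in the coding region of *CARM1*, an arginine methyltransferase that modifies histone H3. Whether siRNAs against the 3 sites were injected together is not stated. All 6 embryos are labelled as blastocysts. Their origin, parthenogenetic activation or fertilization, is not stated for the sequenced embryos, nor is whether they shared a collection day. Each library was made from 1 whole embryo after the cDNA was pre-amplified, and the comparison asks which transcripts differ when *CARM1* is knocked down.

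Pig oocytes and early embryos are rich in lipid, which gives them a dark cytoplasm. Neutral lipid is kept as triglyceride and sterol ester in droplets whose surface carries perilipin proteins. When triglyceride is cut, the released fatty acids are joined to coenzyme A, passed into mitochondria by the carnitine shuttle and shortened in repeated rounds of dehydrogenation, hydration, dehydrogenation and thiolysis, which yield acetyl-CoA and reduced electron carriers for respiration.

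All 10 genes overlapped the RefSeq gene of the same name in the pig assembly Sscrofa11.1. Levels are given as FPKM, fragments scaled to length and to the size of the library. For most genes the gene table used a single length in all libraries, whichever transcript the fragments were assigned to. Of 6230 genes with a count of at least 50 in all libraries, 5802 kept their ratio of count to FPKM within 1 percent. For *CPT1A* the values imply a length of 8760 to 9114 nt, above the 7242 nt of its longest transcript, and for *HADHB* one of 3603 to 3759 nt, although most of its fragments were assigned to a transcript of 1997 nt. Levels of different genes are therefore compared also on a second scale, chosen after the data were seen, in which each transcript's count is divided by its own length and by the library total (length-scaled level). Total counts lay between 26341924 (control 3) and 41727594 (control 1). *CARM1* itself was at 1.26 to 4.54 FPKM in control embryos and at 0.130 to 0.274 FPKM in knockdown embryos, with no overlap. Control 2 stood apart from the other libraries. Mitochondrially encoded genes took 45.0% of its counts, against 14.2% to 23.2% elsewhere, and of 3057 genes with at least 5 FPKM in all the other embryos, 252 had a count of 0 in it. In the other embryos the same tally gave at most 10 genes. Oocyte transcripts (15 of 19 listed markers were in the table) reached a sum of 3254 FPKM in control 2 and of 2084 FPKM in *CARM1* KD 3, against 598 to 933 FPKM in the other embryos. *SYCP3*, the listed marker of highest mean FPKM, was lowest in control 2. It read 26.6 FPKM there and 343 to 763 FPKM in the other embryos. Of the 13 oocyte markers that entered the test below, control 2 was the sole highest embryo for 8 and the sole lowest for 1. With *SYCP3*, which ran the other way, left out of the list, the sums were 3227 and 1673 FPKM, against 27.9 to 589.5 FPKM. Trophectoderm markers, of the outer layer that forms the placenta, had 13 of 13 rows in the table with a sum of 7.01 FPKM in control 2, 139 FPKM in *CARM1* KD 3 and 304 to 546 FPKM in the others. The defining trophectoderm factor *CDX2* did not exceed 0.445 FPKM in any embryo, and that highest value was read in control 2. The trophectoderm keratin *KRT18* had a count of 0 in both control 2 and *CARM1* KD 3. The markers *KRT8* and *DAB2* were also at 0 in *CARM1* KD 3, but not every marker was low there. *TEAD4* was highest in that embryo (14.5 FPKM), and its *TFAP2C* level (35.1 FPKM) lay between those of *CARM1* KD 2 (27.9) and *CARM1* KD 1 (41.2). The part of these differences in the values below was not tested.

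None of the 10 genes passed a test of the difference between the groups. Of these, 9 reached 1 FPKM in at least 2 embryos and entered the test, edgeR's quasi-likelihood test on counts rounded to whole numbers with Benjamini-Hochberg adjustment over all 10639 genes tested. *PLIN3* was the gene below that limit. At an adjusted p under 0.05 the test called 0 of the 9, beside 0 of 10639 genes in all (0%). At an unadjusted p under 0.05 it found 0 of the 9, beside 73 of all genes (0.686%). Of other tools, DESeq2 called 12 genes at an adjusted p under 0.05, with 0 of the 9 among them, and limma on log2(FPKM + 1) called 0. The adjusted p was 0.9999 for each of the 9 genes, and the unadjusted p ran from 0.359 (*ACADVL*) to 0.997 (*CPT2*). For 0 of the 9 genes did every *CARM1* KD embryo lie on the same side of every control embryo, a pattern seen for 520 of all genes tested (4.89%). With length-scaled levels it was found for 1 of the 9, *DGAT1*, beside 544 of all genes (5.11%). The estimated change between groups was below 0 on the log2 scale for 7 of the 9 genes, with a median of -0.33, beside a median of 0.10 over all genes tested. That tally of directions moved to 2 of 9 when limma was run on log2(FPKM + 1), to 4 of 9 when control 2 was left out and to 3 of 9 when control 3 was. With 3 embryos a group, the common biological coefficient of variation, a measure of the spread between embryos of a group, was 1.12, and the 95% intervals below span several-fold changes in both directions.

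**Figure D1:**
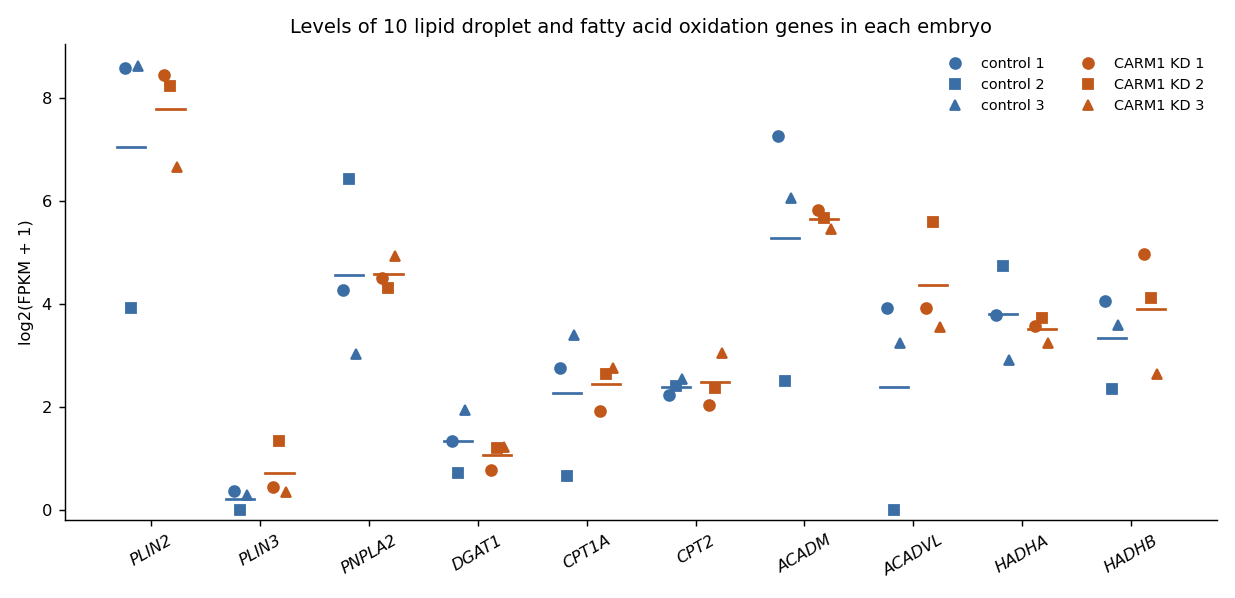
Level of the 10 genes (x axis) in each embryo as log2(FPKM + 1) (y axis). Points are embryos (blue control, orange *CARM1* KD, the shape giving the embryo number) and short lines are group means on this scale. Control 2 is the lowest point for 7 of the 10 genes and the highest for *PNPLA2* and *HADHA*, and the groups overlap for every gene on this scale.

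By mean FPKM over the 6 embryos, the order was *PLIN2* (256), *ACADM* (62.0), *PNPLA2* (30.03), *ACADVL* (15.8), *HADHB* (13.8), *HADHA* (12.7), *CPT1A* (4.92), *CPT2* (4.58), *DGAT1* (1.39) and *PLIN3* (0.447). A few steps of that order held in all embryos. *PLIN2* was above *ACADM* in 6 of 6 embryos, with a mean difference of 1.95 ± 0.70 (SD, n = 6) on the log2(FPKM + 1) scale, and *CPT2* was above *DGAT1* in 6 of 6, with a difference of 1.24 ± 0.46. Both also held in 6 of 6 with length-scaled levels. *DGAT1* was above *PLIN3* in 5 of 6, with a difference of 0.73 ± 0.61. The other neighbours differed by less than their spread. *ACADM* was above *PNPLA2* in 5 of 6 (0.89 ± 2.55) and *HADHA* above *CPT1A* in 5 of 6 (1.31 ± 1.53), or in 4 of 6 by length-scaled levels. *PNPLA2* exceeded *ACADVL* in 4 of 6 embryos, *CPT1A* exceeded *CPT2* in 3 of 6 (4 of 6 length-scaled), *HADHB* exceeded *HADHA* in 4 of 6 (5 of 6 length-scaled), and *ACADVL* exceeded *HADHB* in 2 of 6.

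*PLIN2* (ENSSSCG00000035863, chromosome 1, 203683875 to 203713121, plus strand) encodes perilipin 2, the coat protein of lipid droplets in most cells that are not fat cells. It was the most abundant of the 10 genes, and its mean level stood at percentile 97.6 of all genes tested. Control embryos 1, 2 and 3 held 382, 14.2 and 393 FPKM of it. *CARM1* KD embryos 1, 2 and 3 held 347, 302 and 100.004 FPKM. Most embryos of both groups were thus between 302 and 393 FPKM, while control 2 was far below and *CARM1* KD 3 in between. Group means were 263 ± 216 FPKM for control and 249.6 ± 132 FPKM for *CARM1* KD (SD, n = 3 each), and the log2 fold change was -0.06 (SE 1.26; 95% interval -3.00 to 2.88). Control 2 had 0.0366 of the mean of control 1 and 3, from a count of 2476 against 95408 and 62117. In whole-embryo RNA, fewer cells of a type and less RNA per cell cannot be told apart.

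*PLIN3* (ENSSSCG00000038954, chromosome 2, 73969909 to 73997400, plus strand) encodes perilipin 3, which moves between the cytosol and droplets. It was barely read. Control 1, 2 and 3 read 0.293, 0 and 0.219 FPKM, and the knockdown embryos 0.360, 1.53 and 0.275 FPKM in order of their numbers. The count of 0 in control 2 allows up to 0.101 CPM (counts scaled to the library total), a limit of 3 counts that covers counting error only. *CARM1* KD 2 was the only embryo above 1 FPKM, with 282 fragments. An exact permutation test (2-sided) gave p = 0.2, where 0.1 is the smallest that 3 embryos against 3 can give. The FPKM of *PLIN2* was 197 to 1793 times that of *PLIN3* in the 5 embryos where both were read.

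Both perilipins belong to a list of 20 genes for droplet coat and assembly, of which 18 were in the table. *PLIN1* and *PLIN4*, perilipins known from fat cells, and *PLIN5*, known from oxidative tissue, had a count of 0 in all 6 embryos. Of the 11 listed genes tested, 5 had higher and 6 lower estimates in knockdown embryos (median log2 fold change -0.06), and 0 reached an unadjusted p under 0.05. That median is the estimate of *PLIN2* itself, and the other 10 tested genes had a median of 0.08. *RAB18*, a small GTPase found on droplets, averaged 45.4 ± 27.2 FPKM in control and 61.4 ± 52.3 FPKM in knockdown embryos. *HILPDA*, which binds and inhibits the lipase encoded by *PNPLA2*, averaged 22.2 ± 4.44 and 23.3 ± 17.2 FPKM. For *AUP1*, a droplet protein of the ubiquitin pathway, the means were 13.4 ± 11.6 and 16.97 ± 8.22 FPKM. *FITM2*, which helps droplets bud from the endoplasmic reticulum, had 0 counts in control 2 and 3.78 to 12.8 FPKM in the other embryos. None of these 4 genes separated the groups. The 8 listed fat-cell markers were all in the table, and their summed FPKM was 0 to 1.79 in control and 1.08 to 6.85 in knockdown embryos. *CIDEC*, which helps droplets fuse and is also on the droplet list, made up most of the higher sums, at 6.77 FPKM in *CARM1* KD 1 and at most 1.58 FPKM in the other embryos (log2 fold change 2.34, SE 2.41). *PLIN1*, *PLIN4* and *FABP4* were at 0 throughout.

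*DGAT1* (ENSSSCG00000005918, chromosome 4, 452861 to 466871, plus strand) encodes an acyltransferase that adds the last fatty acid of a triglyceride. It was a low transcript. The control embryos read 1.53, 0.637 and 2.84 FPKM, and the *CARM1* KD embryos 0.721, 1.29 and 1.34 FPKM. The highest and the lowest value both came from control embryos, so the control range enclosed all 3 *CARM1* KD values. That order rests on the length used for control 2, whose 125 fragments were all assigned to a short transcript of 1879 nt. Length-scaled levels were 1.72, 2.25 and 3.03 in control 1, 2 and 3 and 0.757, 1.40 and 1.43 in *CARM1* KD 1, 2 and 3, without overlap. The fitted test uses counts, which the length does not change. Its log2 fold change was -0.71 (SE 0.93; 95% interval -2.87 to 1.45). The gene shares 5313 bases with *HSF1* on the opposite strand, and the sources used here do not give strand use in the counting, so fragments in the shared stretch cannot be assigned with certainty. *HSF1* itself was at 1.99 to 6.47 FPKM over the 6 embryos.

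*PNPLA2* (ENSSSCG00000012841, chromosome 2, 513062 to 518182, plus strand) encodes adipose triglyceride lipase, which takes the first fatty acid off stored triglyceride. Unlike the genes above, it was highest in control 2. Control embryos had 18.2, 84.7 and 7.17 FPKM and *CARM1* KD embryos 21.6, 18.9 and 29.5 FPKM. The *CARM1* KD embryos lay close together, inside a control range whose top was 11.8 times its bottom. Means were 36.7 ± 41.9 FPKM for control and 23.4 ± 5.50 FPKM for *CARM1* KD, with a log2 fold change of -0.84 (SE 0.95; 95% interval -3.05 to 1.37). Without control 2 the sign turned, to 0.79 (SE 0.62). The whole of *PNPLA2* lies within *CD151* on the same strand, 5121 bases of overlap. Fragments in the shared stretch therefore cannot be assigned to either gene with certainty, and their part in the values was not tested. *CD151* was at 0.356 FPKM in control 2, with 0.620 FPKM in *CARM1* KD 3, the embryos where *PNPLA2* was highest, and at 1.52 to 5.13 FPKM in the others.

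Droplet coat and lipase transcripts were thus in different proportion in the embryos. The ratio of *PLIN2* to *PNPLA2* FPKM was 20.9 and 54.9 in control 1 and 3 and 0.168 in control 2, the only embryo with more *PNPLA2* than *PLIN2*. It was 16.04, 15.9 and 3.39 in *CARM1* KD 1, 2 and 3. The 2 lowest ratios were those of the embryos with the most oocyte transcripts, and the groups overlapped (exact permutation test on the log2 ratio, 2-sided, p = 1).

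**Figure D2:**
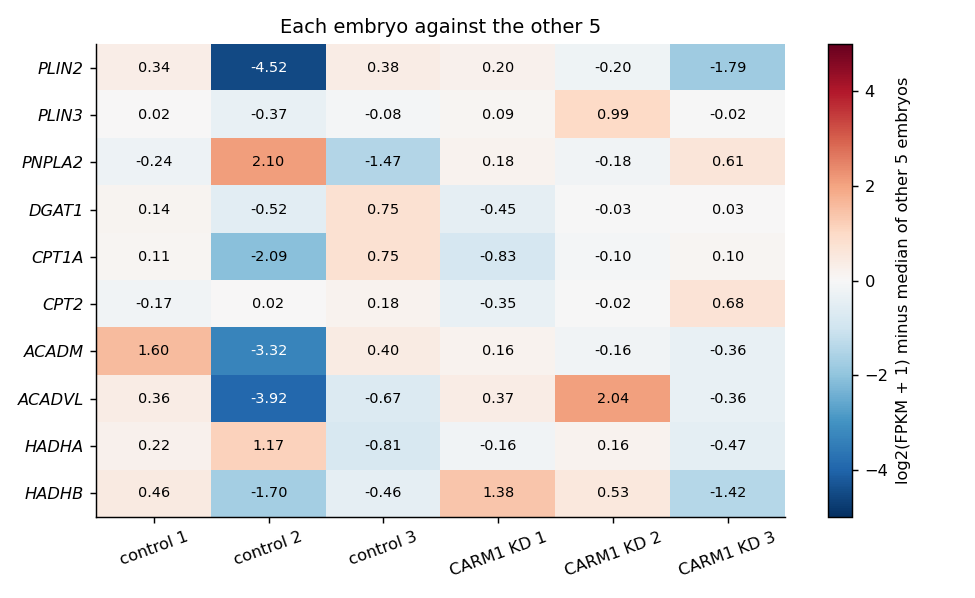
Heat map with 1 row per gene and 1 column per embryo. Each cell, by colour and printed value, is the embryo's log2(FPKM + 1) minus the median of the other 5 embryos (red above, blue below). Control 2 departs by more than 2-fold for 7 of the 10 genes and *CARM1* KD 3 for 2, while each of the other embryos does so for 1.

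Other genes of triglyceride synthesis gave estimates on both sides of 0. Of 18 listed genes, 15 were in the table and 11 were tested, with 6 higher and 5 lower in knockdown embryos and a median of 0.13. These include *DGAT1*, and the other 10 tested genes had a median of 0.14. *SOAT1*, which esterifies cholesterol for storage in droplets, was the most abundant, at 138, 1.38 and 56.3 FPKM in control and 68.8, 83.0 and 33.5 FPKM in knockdown embryos. Like *PLIN2*, it was lowest in control 2. *AGPAT5*, an acyltransferase for an early step, was even by comparison, at 16.5 to 27.7 FPKM in control and 18.2 to 46.9 FPKM in knockdown embryos. *DGAT2*, the other enzyme for the last step, had a count of 0 in control 2 and in *CARM1* KD 3 and did not exceed 2.97 FPKM elsewhere. Its values were chosen for naming after they were seen.

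Among 14 lipolysis genes, 13 were in the table and 7 were tested, with 3 higher and 4 lower in knockdown embryos and a median of -0.84. That median is the estimate of *PNPLA2* itself, and the other 6 tested genes had a median of -0.41. Control 2 was the sole highest embryo for 4 of the 7 and the sole lowest for the other 3. Over all genes tested it was the sole highest for 18.8% and the sole lowest for 42.1%. Without control 2 and *CARM1* KD 3 the median was 0.05. *ABHD5*, the protein that activates the *PNPLA2* lipase, averaged 14.6 ± 13.6 FPKM in control and 17.3 ± 9.34 FPKM in knockdown embryos. *PNPLA8*, a phospholipase of the same family, was at 26.04 FPKM in control 2, with 16.1 FPKM in *CARM1* KD 3, against 4.26 to 10.6 FPKM in the other embryos.

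*CPT1A* (ENSSSCG00000012880, chromosome 2, 4233109 to 4296733, plus strand) encodes the liver-type carnitine palmitoyltransferase of the outer mitochondrial membrane, the step at which entry of long-chain fatty acids is regulated. Control 1, 2 and 3 had 5.75, 0.574 and 9.48 FPKM and *CARM1* KD 1, 2 and 3 had 2.78, 5.24 and 5.71 FPKM. In FPKM the control embryos again held both the highest and the lowest value, while by length-scaled level *CARM1* KD 3 (21.4) was slightly above control 3 (20.7). The log2 fold change was -0.33 (SE 0.97; 95% interval -2.59 to 1.93), and control 2 had 0.0755 of the mean of the other control embryos. *CPT1B*, the muscle-type enzyme, was named after its values were seen and did not exceed 0.558 FPKM in any embryo.

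*CPT2* (ENSSSCG00000003851, chromosome 6, 159037831 to 159061327, minus strand) encodes the enzyme of the inner mitochondrial membrane that returns the fatty acid to coenzyme A. It was the steadiest of the 10 genes. Its values were 3.69, 4.28 and 4.86 FPKM in control embryos and 3.13, 4.19 and 7.31 FPKM in knockdown embryos. Control 2 was in the middle of its group for this gene, at 0.9999 times the mean of the other control embryos. The highest embryo had 2.34 times the lowest, and the SD on the log2(FPKM + 1) scale was at percentile 3.52 of all genes tested, against percentile 92.3 for *PLIN2*. Means were 4.28 ± 0.585 FPKM for control and 4.88 ± 2.18 FPKM for *CARM1* KD, and the log2 fold change was -0.0023 (SE 0.72; 95% interval -1.67 to 1.67).

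The *CPT1A* to *CPT2* ratio of FPKM was 1.56, 0.134 and 1.95 in control embryos and 0.889, 1.25 and 0.781 in knockdown embryos (exact permutation test, 2-sided, p = 1). Control 2 was the embryo apart, through *CPT1A*. With length-scaled levels the ratio was 2.34, 0.157 and 3.96 in the former and 0.790, 1.34 and 2.75 in the latter (p = 0.9 by the same exact permutation test), so that control 2 was still lowest and *CARM1* KD 3 moved from 0.781 to 2.75. Of 12 listed genes of the carnitine shuttle and carnitine synthesis, 10 were in the table and 6 were tested, with 1 higher and 5 lower in knockdown embryos and a median of -0.41. These include *CPT1A* and *CPT2*, the latter with an estimate of -0.0023, and the other 4 tested genes had a median of -0.53. The median of the list was -0.023 without control 2 and -0.75 without both control 2 and *CARM1* KD 3. Over all genes tested, 55.3% had higher estimates. The gene of this list with a higher estimate was *SLC25A20*, the carrier that exchanges acylcarnitine for carnitine across the inner membrane. It read 9.48, 0 and 10.1 FPKM in control and 6.49, 23.4 and 13.3 FPKM in knockdown embryos. *CROT*, the carnitine transferase of peroxisomes, was at 6.37, 7.23 and 0.661 FPKM in control and 3.73, 0.370 and 7.41 FPKM in knockdown embryos. The groups overlapped for both.

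The transcripts assigned to *CPT1A* changed from embryo to embryo. All of its fragments in control 1 and *CARM1* KD 1 were assigned to ENSSSCT00000014079, a transcript of 5600 nt. In control 2 and *CARM1* KD 2 all were assigned to ENSSSCT00000048877, of 7242 nt. Control 3 divided them, with 61.1% on ENSSSCT00000048877 and 36.3% on ENSSSCT00000014080, a transcript of 2318 nt, which took 95.7% in *CARM1* KD 3. Every form was therefore read in both groups. For *DGAT1*, the transcript of 6365 nt took 97.2% to 100% in 5 embryos and 0% in control 2, where all 125 fragments were assigned to the form of 1879 nt. For *CPT2*, the form of 1665 nt took 69.6% in *CARM1* KD 1, 8.23% in *CARM1* KD 2 and at most 1.79% elsewhere. Such shares are estimates by the assembler, and no test was made of them. *PLIN2*, *PNPLA2*, *ACADVL* and *HADHA* have a single transcript each in the table.

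*ACADM* (ENSSSCG00000003776, chromosome 6, 137541381 to 137595108, minus strand) encodes medium-chain acyl-CoA dehydrogenase, which starts each round for fatty acids of middle length. The control embryos read 153, 4.69 and 66.0 FPKM, and the *CARM1* KD embryos 55.7, 49.8 and 43.1 FPKM. The 3 *CARM1* KD embryos were close together, whereas the control embryos spread 32.5-fold and included the highest and lowest value. Means were 74.4 ± 74.3 FPKM for control and 49.5 ± 6.28 FPKM for *CARM1* KD. The log2 fold change was -0.60 (SE 1.06; 95% interval -3.06 to 1.86). Of the *ACADM* fragments, 96.8% to 100% were assigned to the same transcript of 2573 nt in every embryo.

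*ACADVL* (ENSSSCG00000017947, chromosome 12, 52576506 to 52582426, plus strand) encodes the very-long-chain acyl-CoA dehydrogenase bound to the inner mitochondrial membrane. It had the highest estimate of the 9 genes tested, and also the widest interval. Its FPKM was 14.1, 0 and 8.50 in control embryos and 14.2, 47.3 and 10.8 in knockdown embryos. *CARM1* KD 2 was the highest embryo by far, control 2 had no fragment, and the other 4 embryos lay between 8.50 and 14.2 FPKM. The log2 fold change of 1.76 (SE 1.80; 95% interval -2.43 to 5.95) rests in part on that 0 and on *CARM1* KD 2. Without control 2 it was 1.13 (SE 0.87), and without *CARM1* KD 2 it was 0.59 (SE 2.001). The last 1449 bases of the gene are shared with *DVL2* on the opposite strand. *DVL2* was at 2.84 FPKM in control 2, where *ACADVL* had a count of 0, and at 4.88 FPKM in *CARM1* KD 2.

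Where both dehydrogenases were read, *ACADM* was above *ACADVL*. Their FPKM ratio was 10.8 and 7.77 in control 1 and 3, and 3.91, 1.05 and 4.001 in *CARM1* KD 1, 2 and 3. The ratio had no value in control 2, so no test was made.

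*HADHA* (ENSSSCG00000008571, chromosome 3, 112752617 to 112800061, plus strand) and *HADHB* (ENSSSCG00000008569, chromosome 3, 112704024 to 112753038, minus strand) encode the alpha and beta subunits of the mitochondrial trifunctional protein, which carries out the last 3 reactions of a round for long chains. The alpha subunit has the hydratase and dehydrogenase activities and the beta subunit the thiolase. The genes lie head to head and their annotated ends overlap by 422 bases, 112752617 to 112753038. *HADHA* had 12.8, 25.6 and 6.52 FPKM in control embryos and 10.8, 12.2 and 8.50 FPKM in knockdown embryos. *HADHB* had 15.6, 4.12 and 11.1 FPKM in the former and 30.4, 16.4 and 5.21 FPKM in the latter. Control 2 was highest for *HADHA* and lowest for *HADHB*, and *CARM1* KD 3 was the next lowest for *HADHB*. The log2 fold change was -0.59 (SE 0.74; 95% interval -2.31 to 1.13) for *HADHA* and 0.78 (SE 0.89; 95% interval -1.30 to 2.85) for *HADHB*. The former turned to 0.096 without control 2, and the latter was 0.40 without control 2 and 0.081 without *CARM1* KD 1.

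**Figure D3:**
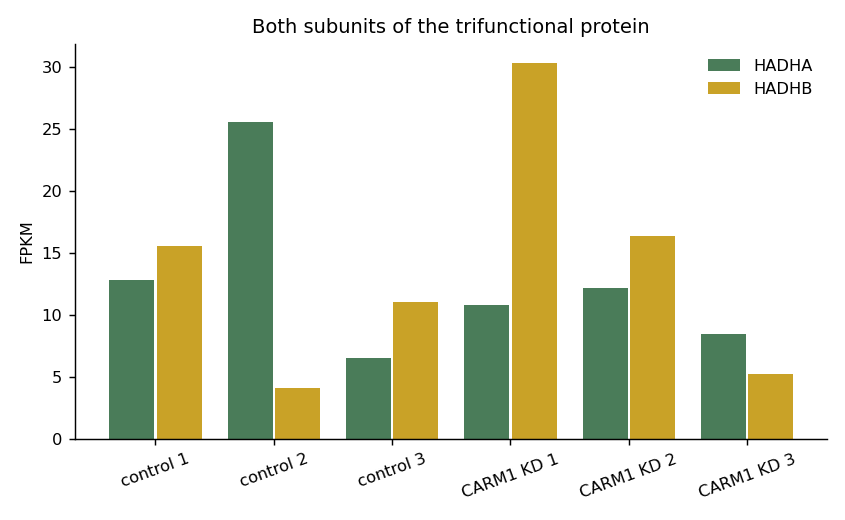
FPKM (y axis, bars from 0) of *HADHA* (green) and *HADHB* (yellow), the subunits of the trifunctional protein, in each of the 6 embryos (x axis). *HADHA* exceeds *HADHB* in control 2 and *CARM1* KD 3, with ratios of 6.21 and 1.63, and is below it in the other 4 embryos, with ratios of 0.357 to 0.822. Which bar is taller depends on the length used for each gene, and with length-scaled levels *HADHA* exceeds *HADHB* in control 2 alone.

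The subunits did not keep a fixed proportion. The *HADHA* to *HADHB* ratio was 0.822, 6.21 and 0.589 in control and 0.357, 0.745 and 1.63 in knockdown embryos. Groups overlapped (exact permutation test on the log2 ratio, 2-sided, p = 0.6), and the 2 highest ratios were those of the embryos with the most oocyte transcripts. With length-scaled levels the ratio was 0.478, 3.97 and 0.348 in control and 0.207, 0.429 and 0.961 in knockdown embryos, and in counts it was 1.39, 10.5 and 0.996 and 0.604, 1.26 and 2.76. The order of the embryos was the same on the 3 scales, with p = 0.6 on each (exact permutation test), but whether an embryo lay above 1 was not. For counts, that order and p follow from the FPKM, because the gene table used a single length for each subunit.

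The rest of mitochondrial beta-oxidation was read more fully than the droplet genes. Of 25 listed genes, 24 were in the table and 21 were tested, including 4 of the 10. In *CARM1* KD embryos 14 had higher and 7 lower estimates (66.7% higher, median 0.31), beside 55.3% higher and a median of 0.10 over all genes tested, and 0 reached an unadjusted p under 0.05. Control 2 was the sole lowest embryo for 15 of the 21, a position it held for 42.1% of all genes tested. *HSD17B10*, a dehydrogenase for short and branched chains, read 249.9, 1.28 and 83.8 FPKM in control and 129.9, 85.3 and 29.7 FPKM in knockdown embryos. *ETFB*, a subunit of the flavoprotein that takes electrons from the acyl-CoA dehydrogenases, read 92.2, 0 and 116 FPKM in control and 185, 96.1 and 74.6 FPKM in knockdown embryos. Its partner *ETFA* was at 13.4 to 38.1 FPKM in control and 17.1 to 62.5 FPKM in knockdown embryos. *PCCB*, a subunit of propionyl-CoA carboxylase, averaged 12.3 ± 7.55 and 17.2 ± 9.62 FPKM. The groups overlapped for these 4 genes. *MMUT*, the mutase that feeds odd-chain carbon into the citric acid cycle, was the tested gene of this list whose groups did not overlap (1 of 21, beside 4.89% of all genes tested), at 5.04 to 7.59 FPKM in control and 3.54 to 3.97 FPKM in knockdown embryos. Its log2 fold change was -0.75 (SE 0.68). *PCCA*, the other subunit of propionyl-CoA carboxylase, was too low to test and also did not overlap, at 0.374 to 0.729 FPKM in control and 0.733 to 1.74 FPKM in knockdown embryos. Both were named after their values were seen.

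Genes of fatty acid uptake and activation included *FABP3*, by mean FPKM the most abundant transcript of the lipid lists. Of 24 listed genes, 23 were in the table and 11 were tested, 5 higher and 6 lower, with a median of -0.13. *FABP3*, a fatty acid binding protein of the cytosol, was at 1437, 8.63 and 1464 FPKM in control embryos and at 2260, 1754 and 156 FPKM in knockdown embryos. *FABP5*, of the same family, was at 207, 4.32 and 370.3 FPKM in control and at 297, 151 and 104 FPKM in knockdown embryos. For both, as for *PLIN2*, control 2 was lowest and *CARM1* KD 3 next. *ACSL3*, which joins fatty acids to coenzyme A on droplets, ran the other way, with 63.4 FPKM in control 2, with 88.4 FPKM in *CARM1* KD 3 against 2.79 to 57.6 FPKM in the other embryos.

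**Figure D4:**
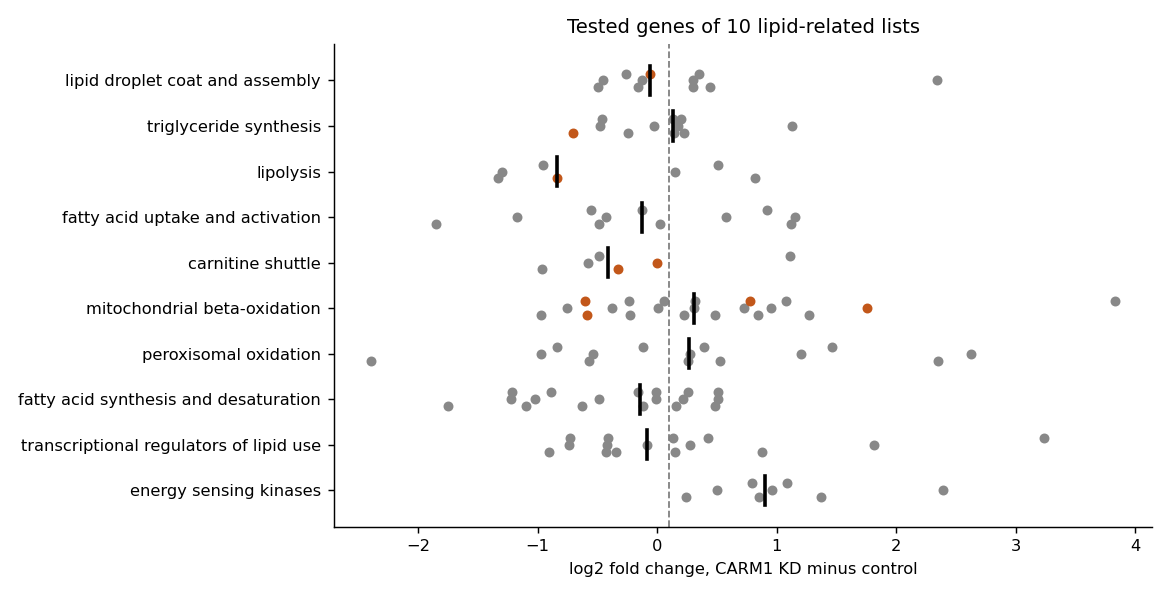
Estimated log2 fold change (*CARM1* KD minus control, edgeR) of the tested genes of each of 10 lists. Each point is a gene, orange for those among the 9 tested genes and grey for others, a black bar is the list's median and the dashed line is the median of all genes tested (0.10). List medians run from -0.84 for lipolysis to 0.91 for the energy sensing genes (kinases and sirtuins). The lipolysis median is the estimate of *PNPLA2* itself, and the other 6 tested genes of that list had a median of -0.41.

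Control 2 carried much of the spread in these genes. It was the lowest of the 6 embryos for 7 of the 10 genes and the highest for 2, with *CPT2* the exception, and among all genes tested it was the sole lowest for 42.1% and the sole highest for 18.8%. By length-scaled level it was the lowest for 6 of the 10. On the log2(FPKM + 1) scale it departed by more than 2-fold from the median of the other embryos for 7 of the 10 genes, against 60.5% of all genes. In FPKM itself it did so for 9 of the 10, against 74.05% of all genes. With control 2 left out, control 1 and 3 and the 3 *CARM1* KD embryos did not overlap for 5 of the 9 genes tested, beside 1222 of all genes (11.5%). Control 2 was already the extreme embryo for most of these genes. With any other library left out, 0 to 2 of the 9 did not overlap, beside 1021 to 1859 of all genes. Without control 2, *PLIN2*, *DGAT1*, *CPT1A* and *ACADM* were lower in FPKM in knockdown embryos and *PNPLA2* was higher. By length-scaled level *CPT1A* did overlap, at 9.09 and 20.7 in control 1 and 3 and 21.4 in *CARM1* KD 3. No gene was called without control 2 either. The log2 fold changes were -0.63 (SE 0.75) for *PLIN2*, -1.11 (SE 0.84) for *DGAT1*, -0.88 (SE 0.61) for *CPT1A*, -1.17 (SE 0.58) for *ACADM* and 0.79 (SE 0.62) for *PNPLA2*. The unadjusted p ran from 0.0791 (*ACADM*) to 0.987 (*CPT2*), and the adjusted p was 0.9998 for each of the 9 (edgeR). With both control 2 and *CARM1* KD 3 left out, the estimates were -0.18 (SE 0.33) for *PLIN2*, -0.93 (SE 0.51) for *ACADM* and 1.59 (SE 0.74) for *ACADVL*.

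**Figure D5:**
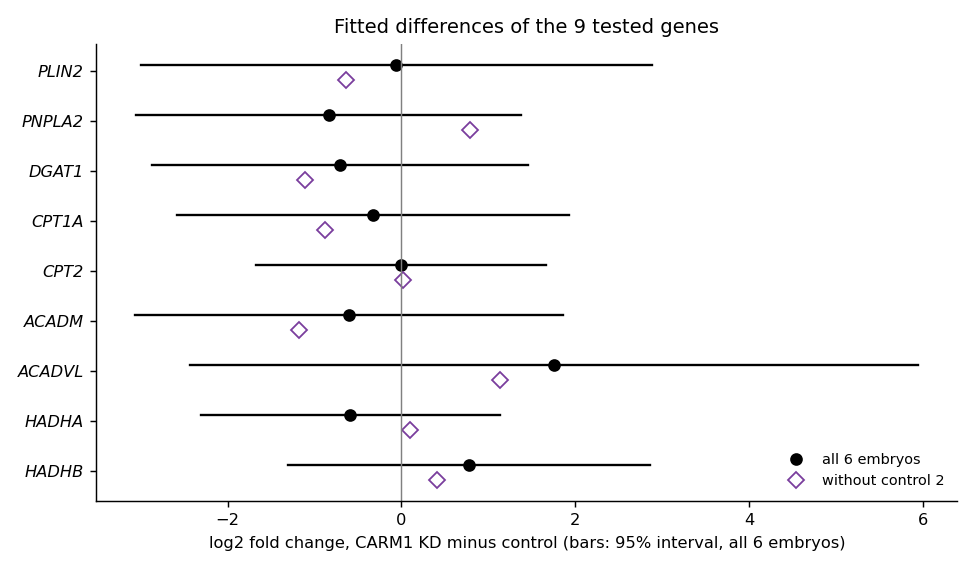
Log2 fold change (*CARM1* KD minus control, edgeR) of the 9 tested genes. Filled circles with bars are the estimates from all 6 embryos with their 95% intervals, and open diamonds are the estimates without control 2, drawn without an interval. Every interval from all 6 embryos includes 0, from -0.84 for *PNPLA2* to 1.76 for *ACADVL*, and the estimate of *PNPLA2* turns from -0.84 to 0.79 without control 2.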

How the data were processed

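RNA of 6 single embryos at day 5 was sequenced, 3 control and 3 *CARM1* KD, grouped by the sample labels. The 10 genes and all gene lists were chosen with earlier results of these data known. The tables the authors deposited hold an FPKM value and an estimated count per embryo for each of 24358 genes and 47421 transcripts. The study's methods name Cufflinks. According to the submitters' processing notes, StringTie, HISAT2, fastp and edgeR were used, and the build is named as GRCh38.p10, a human build. The sources used here do not say which tool made the tables. Coordinates of the tables fit Sscrofa11.1, where 10 of 10 genes overlapped the RefSeq gene of the same name. Gene counts were the sums of transcript counts throughout, and the small placeholder that the FPKM columns hold where a count is 0 is given here as 0. Pre-amplification without molecular identifiers means that counting limits cover counting error only.

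Counts were rounded and fitted with edgeR 4.0.16 (R 4.3.3), TMM scaling and group as the only term, for the 10639 genes that reached 1 FPKM in at least 2 libraries. The SE was taken from the log2 fold change and the square root of the F statistic (4 residual degrees of freedom among samples), and the 95% interval used edgeR's moderated degrees of freedom. Ratios and other single values were compared with exact permutation tests (2-sided). Alternatives were median-ratio and upper-quartile scaling, DESeq2 1.42.0, limma 3.58.1, other filters, mitochondrial genes left out, a replicate block and libraries left out; levels from transcript lengths were added after the data were seen. Named genes were all 10, up to 4 tested genes per lipid list with the highest mean FPKM and any listed gene at an unadjusted p under 0.05 (there were 0); not all of the 4 are printed. Python 3.11.15, pandas 2.3.3, scipy 1.17.1 and matplotlib 3.10.9 were used. Sequences were not used here.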

Additional observations from a re-analysis of the deposited data

How the results depend on the processing

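None of the 9 tested genes passed an adjusted p under 0.05, or an unadjusted p under 0.05, in the alternatives run. Over all genes, DESeq2 called 12. The number at an unadjusted p under 0.05, 73, was 193 with DESeq2, 243 without a filter, 15 with a filter of 5 FPKM in 3 libraries, 193 without control 2 and *CARM1* KD 3, and 49 to 122 with each library left out in turn (122 without *CARM1* KD 3). Groups that did not overlap, 520 genes, became 201 under the stricter filter and 1021 to 1859 with a library left out. Among the 9 genes this gave 0 to 5, the 5 only without control 2, and 1 (*DGAT1*) with levels from transcript lengths. Genes with a lower estimate, 7 of 9, were 2 with limma on log2(FPKM + 1) and 3 to 7 with a library left out. The sign turned with limma (pseudocount 1, then 0.1) for *PLIN2* (0.74, 0.76), *PNPLA2* (0.011, 0.039), *CPT1A* (0.17, 0.41), *CPT2* (0.099, 0.11) and *ACADM* (0.37, 0.44), without a filter for *CPT2* (0.016), and without control 2 and *CARM1* KD 3 for *PNPLA2* (0.80) and *HADHA* (0.38). With a library left out, the ranges were -0.63 to 0.46 for *PLIN2*, -1.32 to 0.79 for *PNPLA2*, -1.11 to 0.00040 for *DGAT1*, -0.88 to 0.53 for *CPT1A*, -0.26 to 0.21 for *CPT2*, -1.17 to 0.33 for *ACADM*, -0.94 to 0.096 for *HADHA*, 0.59 to 2.45 for *ACADVL* and 0.081 to 1.20 for *HADHB*. *ACADVL* and *HADHB* kept their sign in all 16 alternatives. The median over all genes, 0.10, was -0.02 with upper-quartile scaling and 0.22 and 0.34 with limma. The cause of these shifts was not tested.

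Deviations of same-numbered embryos from their group means correlated at 0.273, -0.485 and -0.552. The highest correlation, 0.596, was between control 2 and *CARM1* KD 3. With 3 embryos a group, these values cannot show whether same-numbered embryos shared a collection day. With a replicate block, 16 genes reached an unadjusted p under 0.05, 4 of the 9 genes had a lower estimate, and the sign turned for *PLIN2* (0.36), *CPT1A* (0.11) and *ACADM* (0.028).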

Other observations

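Peroxisomes also shorten fatty acids. Of 19 listed genes, 14 were tested, 8 higher and 6 lower in knockdown embryos (median 0.27), and 0 reached an unadjusted p under 0.05. *AMACR*, a racemase for branched chains, was at 0.711 to 2.28 FPKM in control and 3.47 to 4.46 FPKM in knockdown embryos, without overlap. *EHHADH*, the bifunctional enzyme, was at 27.2 FPKM in control 2, with 7.15 FPKM in *CARM1* KD 3 and at 0.126 to 3.81 FPKM in the others.

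Of 18 tested genes for fatty acid synthesis and desaturation, 6 had higher and 12 lower estimates (median -0.14). *ELOVL6*, an elongase, read 135, 424 and 55.7 FPKM in control and 32.4, 21.5 and 183 FPKM in knockdown embryos. Among 15 tested regulators of lipid use, 7 were higher and 8 lower. The groups did not overlap for 1 of the 15, beside 4.89% of all genes tested. *PPARG*, a nuclear receptor for lipids, was at 10.5 to 15.4 FPKM in control and 6.52 to 13.6 FPKM in knockdown embryos. *ESRRG*, an orphan receptor, was highest in control 2 (156 FPKM) and *CARM1* KD 3 (86.5 FPKM). *ESRRB*, on the same list, was lowest in control 2, at 0.0875 FPKM against 11.1 to 50.6 FPKM in the other embryos. All 8 tested genes of the energy sensing list had higher estimates (median 0.91; 0.48 without control 2; 0.71 without control 2 and *CARM1* KD 3), beside 55.3% of all genes, and 0 of the 8 reached an unadjusted p under 0.05. *STK11*, the kinase that activates AMPK, was at 0.704, 1.47 and 1.06 FPKM in control and 2.01, 5.41 and 13.4 FPKM in knockdown embryos, with a log2 fold change of 2.39 (SE 1.13). *SIRT3*, a mitochondrial deacetylase, was at 0.325 to 4.77 FPKM in control and 5.23 to 7.12 FPKM in knockdown embryos. *AMACR*, *STK11* and *SIRT3* are among the 4.89% of all tested genes whose groups did not overlap. In their lists this held for 3 of the 8 tested energy sensing genes and 2 of the 14 tested peroxisomal genes. *SIRT1* (log2 fold change 0.50) and *PRKAA1* (0.24), also among the 4 tested energy sensing genes of highest mean FPKM, overlapped. *AMACR* was named after its values were seen.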
